A study of Mus musculus with 6 samples.

Results

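The cytosolic ribosomal protein genes were followed in blood stem and progenitor cells of mouse bone marrow. A gene was counted as a member when the array's probe table gave a single symbol that began with Rpl or Rps and a digit, or was Rplp0, Rplp1, Rplp2 or Rpsa. Symbols of S6 kinases, of Rps19bp1 and of named pseudogenes were left out. This gave 49 of the 18193 genes that the table names by a single symbol, with 105 probe sets among them, and each gene was read by its brightest probe set. There were 22 genes of the large subunit, 21 of the small subunit and 6 paralogs whose symbols end in l or l1 (Rpl22l1, Rpl39l, Rpl3l, Rpl7l1, Rps27l and Rps4l). A further 110 probe sets carried several symbols of which at least 1 had the ribosomal protein form. They fall outside the rule, so Rplp1, Rpl5, Rpl17 and Rpl23a were among the ribosomal protein genes not analysed here.

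Erg-knockdown cells were YFP-negative LSK cells (lineage-negative, Sca-1 and c-Kit positive), labelled as having about 40% less Erg. Erg-restored cells were YFP-positive LSK cells of the same animals, labelled as brought back to the wild-type Erg level. Both populations came from adult Mx1Cre;Ergkd/+;R26Y mice of mixed 129 and B6 background, so the knockdown allele, the Mx1Cre transgene and the reporter were carried by every animal. The R26Y reporter switches on YFP where Cre has acted, and because cells were sorted by it, a difference in Erg and the action of Cre itself cannot be told apart. There were 6 Affymetrix mouse genome arrays, 1 for each population of mice 278, 279 and 281. Differences are Erg-knockdown minus Erg-restored on the log2(intensity + 16) scale, within a mouse or from limma with the mouse as a block, and ± after a difference is the standard error.

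Ribosomal proteins are made in nearly equal numbers, since each ribosome takes a copy of most of them, and their mRNAs are among the most abundant of any cell. Many of these mRNAs begin with a run of pyrimidines, the terminal oligopyrimidine or TOP motif, through which mTOR and LARP1 set their translation. Hematopoietic stem cells are known to keep protein synthesis low, and in human Diamond-Blackfan anemia the loss of a single copy of one of several of these genes impairs red cell production. ERG is an ETS family transcription factor that helps to maintain hematopoietic stem cells, and ETS factors bind DNA around a GGAA core.

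The first bases of some of the transcripts are shown because the pyrimidine run at the start is what defines the TOP class. Each line holds 30 bases, with 15 before the annotated first base of the transcript, from RefSeq promoter windows of GRCm38.p6, and capitals mark an unbroken run of C and T that covers the first base.
Rps24, chr14:24490663-24490692, plus strand: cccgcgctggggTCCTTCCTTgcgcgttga
Rps10, chr17:27635230-27635259, minus strand: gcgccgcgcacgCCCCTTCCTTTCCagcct
Rps27, chr3:90213634-90213663, minus strand: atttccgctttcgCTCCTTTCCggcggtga
Rps6, chr4:86857353-86857382, minus strand: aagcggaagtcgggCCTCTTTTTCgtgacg
Rplp2, chr7:141447636-141447665, plus strand: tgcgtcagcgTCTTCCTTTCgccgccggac
Rpl35, chr2:39005117-39005146, minus strand: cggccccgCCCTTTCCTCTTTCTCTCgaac
Rpl22, chr4:152325711-152325740, plus strand: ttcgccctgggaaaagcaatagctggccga
Rpl22l1, chr3:28805493-28805522, plus strand: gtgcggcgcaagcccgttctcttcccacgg
The run was 18 bases long in Rpl35 and 13 in Rps10, while Rpl22 and its paralog Rpl22l1 had none over the annotated first base. Promoter windows (250 bases before to 50 after the start) were found for 43 of the 49 members, in 51 windows. A run of at least 5 pyrimidines over the first base was present in 13 of the 51, which is 25.5%, against 10.1% of all 32851 windows. It was found in 7 of 23 large subunit windows, 6 of 21 small subunit windows and 0 of 7 paralog windows. Such a run can include bases before the annotated first base, and a purine at that base gives none. How exact the annotated starts are was not tested, so these shares are not shares of TOP transcripts. The motif CTTTCC on either strand was present in 45.1% of the member windows and 26.6% of all windows.

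The ETS type motif CCGGAA, searched on both strands as CCGGAA or TTCCGG, is shown next for 3 members because it is the form of site that an ETS factor such as ERG can bind. Each line gives the 100 bases before the annotated first base, with the motif in capitals.
Rps6, chr4:86857368-86857467, minus strand: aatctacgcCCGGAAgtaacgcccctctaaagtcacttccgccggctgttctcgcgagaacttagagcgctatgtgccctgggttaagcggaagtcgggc
Rpsa, chr9:120127666-120127765, plus strand: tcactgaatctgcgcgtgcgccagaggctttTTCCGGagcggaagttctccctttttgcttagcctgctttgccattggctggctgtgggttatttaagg
Rpl41, chr10:128549169-128549268, minus strand: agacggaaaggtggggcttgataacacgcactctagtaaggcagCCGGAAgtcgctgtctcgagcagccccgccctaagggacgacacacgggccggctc
The motif began at -91 in Rps6, -69 in Rpsa and -56 in Rpl41, counted from the first base. It was present in 28 of the 51 member windows, which is 54.9%, against 14.9% of all windows. The share was 56.5% for the large subunit, 57.1% for the small subunit and 42.9% for the paralogs. CTTTCC and TTCCGG can share bases, as they do in Rps27, and both motifs were present in 25.5% of the member windows and 4.51% of all windows. A match is a stretch of letters and not a measured binding site.

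The Erg probe sets were read first as a check of the labels. The brighter read 2969.9, 2754 and 2706 in Erg-knockdown cells of mice 278, 279 and 281, against 2731, 2901 and 2659 in Erg-restored cells, a log2 difference of 0.024 (adjusted p = 0.936, limma). The dimmer read 1820.1, 1331 and 1569.7 in Erg-knockdown cells against 1859, 1542 and 1686 in Erg-restored cells. It was lower in Erg-knockdown cells of each mouse (-0.031, -0.21 and -0.10), the direction of the label, while the populations overlapped, and its mean difference was -0.11 (exact two-sided sign-flip p = 0.25, the smallest that 3 mice allow). The labelled fall of about 40% was not seen at either probe set, and every direction below is that of the population labelled Erg-knockdown. Of the LSK and stem cell markers, Kit lay between 3972 and 5206 and Cd34 between 8800 and 9512 on the 6 arrays. Of the 8 tested, 7 were above 0 (50.1% of all genes) and Slamf1 was below (-0.50). Their median difference was 0.15, with 0.21, 0.15 and 0.043 in mice 278, 279 and 281. At an unadjusted p below 0.05 limma gave 0 of them. The 5 named B cell markers summed to 3144, 2686 and 2614 in Erg-knockdown cells against 3133, 2730.4 and 2807 in Erg-restored cells, most of it from Cd79b, while Pax5 stayed between 0 and 32.5. Cd79a, under the filter, was higher in Erg-knockdown cells of each mouse (0.49, 0.62 and 0.51). Cd79b, the 1 tested B cell marker, was lower in each (-0.070, -0.081 and -0.18). Ms4a1, Ebf1 and Pax5, also under the filter, differed in sign between mice. The summed neutrophil markers were 23274, 44617 and 26422 in Erg-knockdown cells against 22519, 15984 and 40844 in Erg-restored cells, and the summed plasma cell markers 11721, 12819 and 9400.1 in Erg-knockdown cells against 5948, 6815 and 7431 in Erg-restored cells. All 3 tested plasma cell markers were above 0 at an unadjusted p below 0.05. The summed macrophage markers were 2640.3, 3839 and 1859 in Erg-knockdown cells against 3741, 3249.7 and 4422 in Erg-restored cells, and all 4 tested were below 0, of which 2 (C1qb with -1.39 and Csf1r with -0.40) had an unadjusted p below 0.05. The median differences of the tested T cell, erythroid and megakaryocyte markers differed in sign between mice. At an adjusted p below 0.05 limma called 0 genes of these lists. Their part in the values below was not tested. The 3′ over 5′ ratio of the control probe sets, a measure of RNA integrity and amplification, was 0.71 on the log2 scale on the Erg-restored array of mouse 279 and between 0.47 and 0.54 on the other 5 arrays. Results that rest on the Erg-restored array of mouse 279 are given with those of the other mice beside them. The number of arrays limits the precision, and fewer cells of a type cannot be told apart from less RNA per cell.

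Most members were among the brightest genes on the arrays. The mean intensity over the 6 arrays was between 10000 and 20000 for 36 of the 49, between 5000 and 10000 for 3, between 2000 and 5000 for 2, between 100 and 500 for 4 and under 100 for 4. Their median percentile among all probe sets was 99.8, and 60 of the 340 probe sets at 10000 or more belonged to members. Rps28, a small subunit protein at the mRNA exit, read 17097, 17184 and 17296 in Erg-knockdown cells against 16630, 17266 and 16166 in Erg-restored cells. Rpsa, a small subunit protein also known as the laminin receptor, read 16500, 15738 and 15847 in Erg-knockdown cells against 16908, 17845 and 16210 in Erg-restored cells. Rpl4, which reaches into the peptide tunnel of the large subunit, read 15862, 15886 and 15850 in Erg-knockdown cells against 15870, 16849 and 15496 in Erg-restored cells. These 3 had the highest means of all members, and in each the Erg-restored array of mouse 279 stood above the other 2 Erg-restored arrays. The highest mean of any probe set in the table was 17506, so these genes lie at the top of the measured range, and whether signals there are compressed was not tested.

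**Figure D1:**
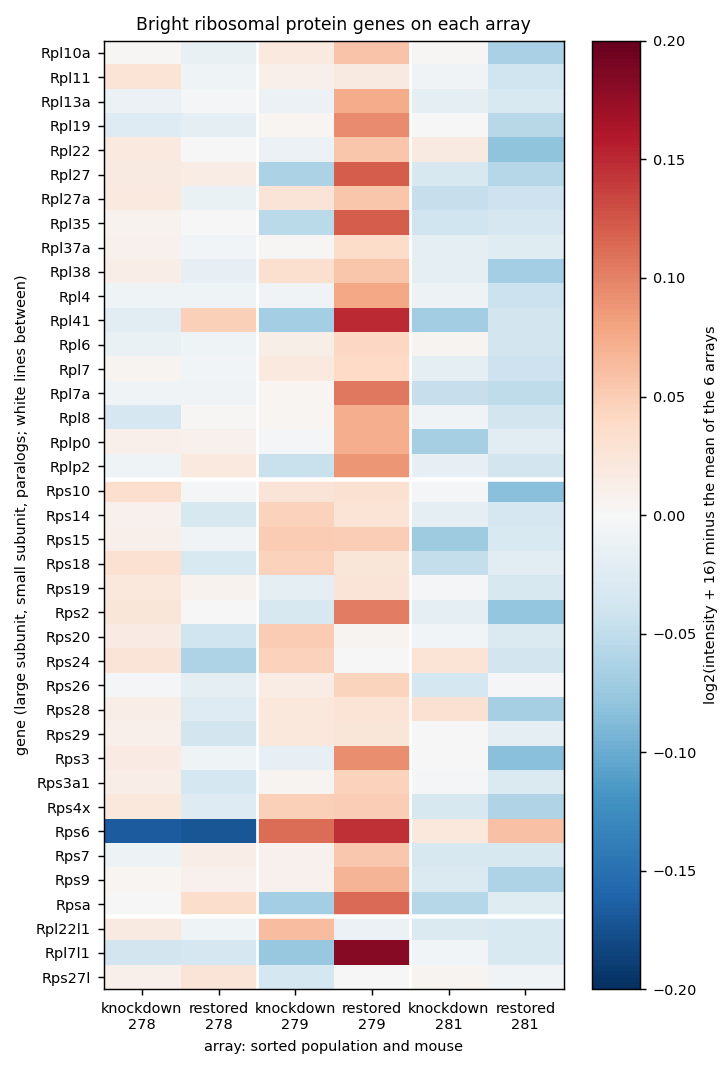
Ribosomal protein genes with a mean intensity of 5000 or more, each as log2(intensity + 16) minus its mean over the 6 arrays, by subunit (rows) and array (columns, with Erg-knockdown left of Erg-restored within each mouse). The Erg-restored array of mouse 279 held the highest value of the 6 in 29 of 39 genes, and the Erg-restored array of mouse 281 the lowest in 21.

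The levels varied little between arrays. The median standard deviation of a member over the 6 arrays was 0.046 on the log2 scale, against 0.154 for all genes tested. It was 0.041 for the 39 members with a mean of at least 5000, a limit chosen after the levels were seen. For the 1490 other genes tested over the same limit it was 0.066. The groups were not matched in level above that limit. A mean between 10000 and 20000 was held by 36 members, while the whole table had 340 probe sets at 10000 or more. Bright probe sets of the same gene gave similar answers: for the 19 genes with more than 1 such probe set, the range of their differences had a median of 0.046 and was largest, at 0.11, in Rpl22.

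The main comparison asked whether ribosomal protein genes differ between Erg-knockdown and Erg-restored cells. In the fit of all 10825 genes whose probe set passed the filter on dim signals, 44 members were tested, 20 of the large subunit, 20 of the small subunit and 4 paralogs. At an adjusted p below 0.05 limma called 0 members higher and 0 lower in Erg-knockdown cells, against a background of 0.0% of all genes in each direction. At an unadjusted p below 0.05 it also gave 0 members in each direction, where the background was 3.94% higher and 1.88% lower. The difference was above 0 in 18 of 44 members (50.1% of all genes) and below 0 in 26 (49.9% of all genes). Their median difference was -0.0087, against 0.00039 over all genes tested. Centring the arrays on their medians put the middle of all genes at -0.051 and 42 of 44 members below 0. The median of the members minus that of all genes was -0.0091, which centring cannot change, and with quantile normalization it was 0.013.

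The intervals around these differences had a median half-width of 0.199 for the tested members, against 0.285 for all genes tested. Among genes with a mean of at least 5000 it was 0.198 for the members and 0.212 for the other genes tested. The 95% interval of the limma fit lay within a 1.2-fold difference in either direction for 35 of 44 members, against 1512 of the 10825 genes tested, and within 1.5-fold for 42 of 44, against 74.4%. The median standard error was 0.071. With so few residual degrees of freedom this error is drawn towards that of all genes, and in a trended and robust fit, whose prior follows the signal, it was 0.028. That fit gave Rps24 an unadjusted p of 0.033 and Rpl41 one of 0.048, with an adjusted p of 0.725 for both (limma). The share of all genes at an unadjusted p below 0.05 in that fit is not given here, so no excess among the members can be read from it.

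**Figure D2:**
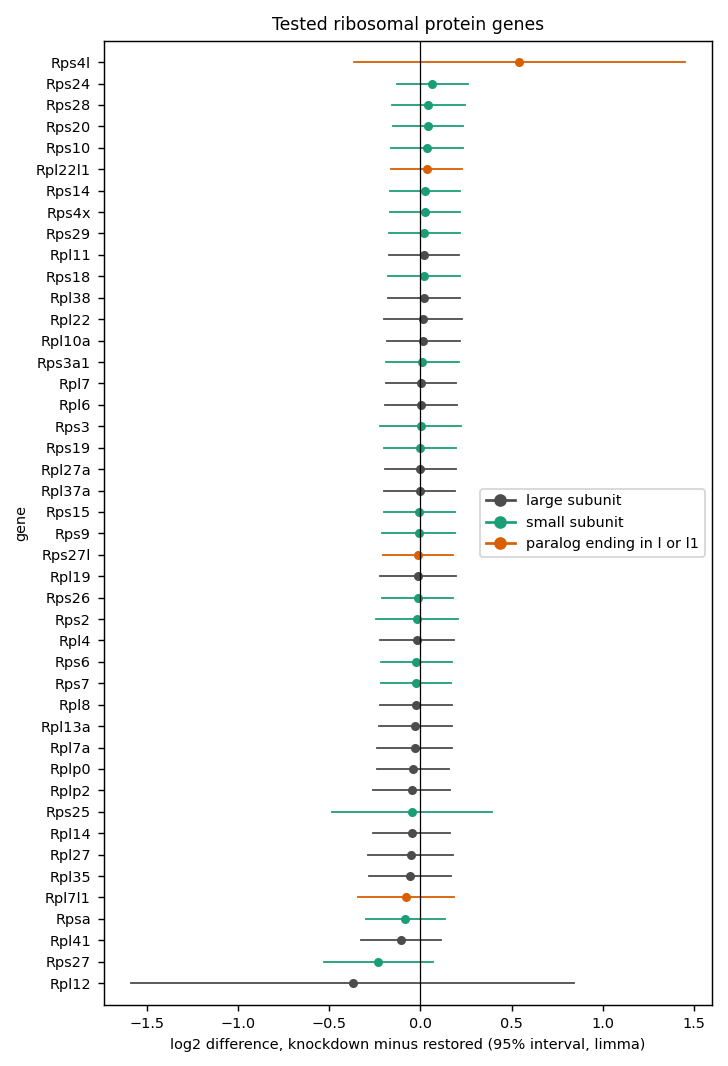
Difference of the 44 tested ribosomal protein genes, Erg-knockdown minus Erg-restored on the log2(intensity + 16) scale, as the limma estimate (point) with its 95% interval (line), by subunit. Every interval crosses 0, and the widest belong to Rps4l (0.54) and Rpl12 (-0.37), which were dim.

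The side of 0 on which most members lay differed between the mice. Over all 49 the median difference was 0.013 in mouse 278, -0.035 in mouse 279 and 0.021 in mouse 281, with 31, 12 and 34 of 49 above 0. Over all genes tested it was 0.031, -0.043 and 0.032, with 6351, 4861 and 6268 of 10825 above 0. The medians of the members thus had the sign of those of all genes in each mouse. For the 22 large subunit genes the medians were 0.0024, -0.072 and 0.023, and for the 21 small subunit genes 0.025, -0.012 and 0.024. Among the 39 bright members, 0 of 18 large subunit genes were above 0 in mouse 279, against 5 of 18 small subunit genes. In mouse 278 these counts were 10 of 18 and 15 of 18, and in mouse 281 they were 14 of 18 and 12 of 18. Of the 1490 other genes tested with a mean of at least 5000, 920, 677 and 1004 were above 0 in mice 278, 279 and 281. The split between subunits was a description of 3 mice and was not tested.

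The Erg-restored array of mouse 279 carried most of that pattern. It was the highest of the 6 arrays for 19 of 20 tested large subunit genes, 11 of 20 small subunit genes and 1 of 4 paralogs, in all 70.5% of members against 38.9% of all genes tested. Its median deviation from a gene's mean was 0.071 for the large subunit, 0.044 for the small subunit and 0.046 for all genes tested. The Erg-knockdown array of the same mouse had medians of -0.00016 and 0.015 for the subunits and 0.0013 for all genes. This Erg-restored array also had the highest 3′ over 5′ ratio, given above, whose part in the result was not tested. Without it, in a fit of the other 5 arrays with no mouse term, the median over the tested members was 0.023. The median of all genes in that fit is not given here, so a shift particular to the members cannot be read from it.

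**Figure D3:**
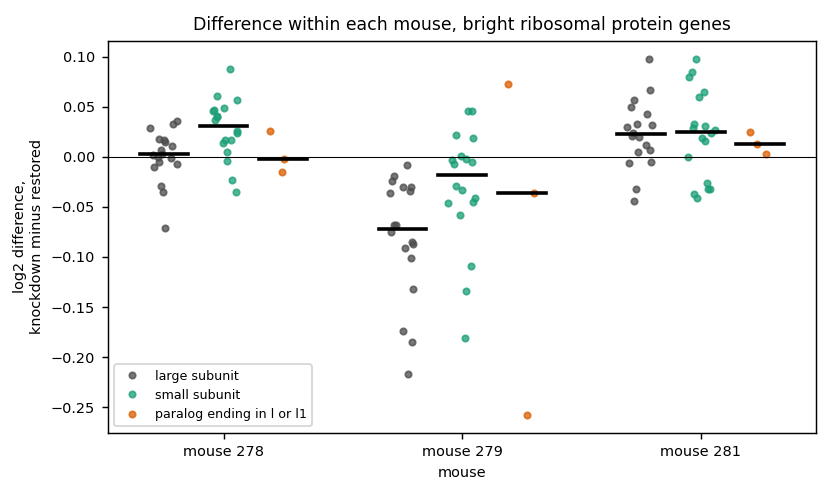
Difference of each ribosomal protein gene with a mean intensity of 5000 or more within each mouse, Erg-knockdown minus Erg-restored on the log2(intensity + 16) scale, by subunit, with bars at the medians. In mouse 279 the points of all 18 large subunit genes lie below 0, with a median of -0.072, while the medians of mice 278 and 281 are 0.0025 and 0.023.

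Rplp0 and Rplp2 belong to the acidic stalk of the large subunit, which recruits the elongation factors. Rplp0 read 13044, 12921 and 12358 in Erg-knockdown cells against 13026, 13616 and 12743 in Erg-restored cells, a difference of -0.039 ± 0.070 (adjusted p = 0.875, limma). Rplp2 read 12828, 12522 and 12758 in Erg-knockdown cells against 13087, 13724 and 12582 in Erg-restored cells, a difference of -0.047 ± 0.076 (adjusted p = 0.861, limma). The populations overlapped for both, and mouse 279 gave the lowest of the 3 differences for both.

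Rpl11 forms, with Rpl5 and the 5S rRNA, the particle that can bind and inhibit Mdm2 when ribosome assembly fails. It read 14620, 14438 and 14266 in Erg-knockdown cells against 14262, 14522 and 13955 in Erg-restored cells, a difference of 0.020 ± 0.069 (adjusted p = 0.939, limma). The populations overlapped.

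Around the exit of the peptide tunnel, Rpl19, Rpl22, Rpl35 and Rpl38 were tested, and 2 of the 4 were above 0. Rpl35, at the tunnel rim where chaperones dock, read 15826, 15175 and 15324 in Erg-knockdown cells against 15750, 17125 and 15388 in Erg-restored cells. The Erg-restored array of mouse 279 stood above the other 5. The difference was -0.058 ± 0.080 (adjusted p = 0.844, limma), and 4 other bright probe sets of Rpl35 gave between -0.040 and 0.0061. Rpl38, known in mice for its part in translating Hox mRNAs, differed by 0.018 ± 0.070 and Rpl19 by -0.014 ± 0.075.

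Rpl41, the smallest ribosomal protein, which sits between the subunits, had the lowest difference of the bright members. It read 10872, 10537 and 10533 in Erg-knockdown cells against 11423, 12251 and 10770 in Erg-restored cells. The Erg-restored value was the higher in each mouse, while the populations overlapped across mice. The difference was -0.11 ± 0.079 (adjusted p = 0.784, limma), with -0.071, -0.22 and -0.032 in mice 278, 279 and 281. The other 3 probe sets of Rpl41 were also below 0, between -0.19 and -0.041.

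In the small subunit, Rps24 was the bright member whose populations did not overlap. Rps24, which is needed to process the pre-rRNA of the small subunit, read 13554, 13742 and 13566 in Erg-knockdown cells against 12755, 13310 and 12971 in Erg-restored cells. Each Erg-knockdown array was above all 3 Erg-restored arrays. The difference was 0.066 ± 0.069, with a 95% interval from -0.13 to 0.26 (adjusted p = 0.815, limma), which is 1.05-fold. It was 0.088, 0.046 and 0.065 in the single mice. Other probe sets of Rps24 gave between -0.032 and 0.083, and both ends came from dim ones. Of its other bright probe sets, those that gave 0.047 and 0.067 were also separate with Erg-knockdown higher. In the one that gave 0.016 the populations overlapped. Among the tested members, Rps24 was the 1 gene whose populations were separate with Erg-knockdown higher, where the background was 10.1% of all genes, and Rps27, described below with its paralog, was the 1 gene separate with Erg-knockdown lower, where it was 5.11%.

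Rps20, Rps10 and Rps28 were the other bright small subunit genes with the smallest p on the higher side. Rps20, of the head of the subunit, read 16023, 16419 and 15790.0 in Erg-knockdown cells against 15409.9, 15904 and 15534 in Erg-restored cells. It was higher in Erg-knockdown cells within each mouse, while the populations overlapped. The difference was 0.042 ± 0.069 (adjusted p = 0.863, limma), and its other 3 probe sets gave 0.043, 0.20 and 0.22. Rps10, near the mRNA entry, read 15009, 14918 and 14621 in Erg-knockdown cells against 14629, 14973 and 13833 in Erg-restored cells, a difference of 0.037 ± 0.071 (adjusted p = 0.884, limma). A dim probe set of Rps10 gave -0.50, the one case where a further probe set had the other sign and lay more than 0.5 away. Rps28 differed by 0.044 ± 0.072 (adjusted p = 0.864, limma), and its other 2 probe sets gave -0.0054 and 0.014.

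Rpsa stood on the lower side. Its difference was -0.083 ± 0.077 (adjusted p = 0.799, limma), and the 3 mice gave -0.035, -0.18 and -0.033. Its dim probe set gave 0.38. The same sign in all 3 mice was seen for 5 of 44 members on the higher side (Rpl22l1, Rps14, Rps20, Rps24 and Rps4l), which is 11.4% against 19.9% of all genes. On the lower side it was seen for 4 of 44 (Rpl41, Rps27, Rps7 and Rpsa), which is 9.09% against 12.4%. In mouse 281 the difference was -6.5e-05 for Rps7 and 0.0025 for Rpl22l1, so their sign there rests on nearly equal values.

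Rps6, the small subunit protein that S6 kinase phosphorylates downstream of mTOR, had a wider spread between mice than between populations. It read 7063, 8571 and 8042 in Erg-knockdown cells of mice 278, 279 and 281 against 7039, 8772 and 8255 in Erg-restored cells. Both populations of mouse 278 were lower than those of the other mice. The difference between populations was -0.022 ± 0.069 (adjusted p = 0.932, limma), and the term for mouse had an unadjusted p of 0.057 and an adjusted p of 0.914 in the same limma fit. A dim probe set of Rps6 had the same order of mice, with 78.3, 177 and 142 in Erg-knockdown cells against 76.2, 161 and 127 in Erg-restored cells. At an unadjusted p below 0.05 the mouse term was passed by 0 of 44 members, against 5.37% of all genes.

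Of the 19 genes listed for Diamond-Blackfan anemia in human, 11 were tested, of which 5 were above 0 and 6 below. Their median difference was -0.00071. Rps19, the gene most often mutated in that disease, read 14632, 14222 and 14399 in Erg-knockdown cells against 14497, 14682 and 14098 in Erg-restored cells, a difference of -0.00071 ± 0.070 (limma), which is also the middle value of the 11. The populations overlapped. Of the genes of the small subunit head and mRNA entry, 6 of 11 were above 0 with a median of 0.00039.

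The paralogs differed in level from bright to near background. Rpl22l1, the paralog that can replace Rpl22 in mouse cells and whose expression Rpl22 is known to repress, read 10764, 11103 and 10426 in Erg-knockdown cells against 10575, 10555 and 10408 in Erg-restored cells. It was higher in Erg-knockdown cells in each mouse, and the populations overlapped. The difference was 0.034 ± 0.070 (adjusted p = 0.896, limma). Its parent Rpl22, which is known in mice for its part in T cell development, read 14517, 14210.1 and 14501 in Erg-knockdown cells against 14339.6, 14893 and 13547 in Erg-restored cells, a difference of 0.016 ± 0.077. The difference of Rpl22l1 minus that of Rpl22 was 0.0078, 0.14 and -0.096 in the 3 mice (exact two-sided sign-flip p = 0.75).

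Rps27l, a paralog that p53 is known to induce, read 8475, 8208 and 8449 in Erg-knockdown cells against 8563, 8415 and 8377 in Erg-restored cells, a difference of -0.013 ± 0.069 (adjusted p = 0.963, limma). The probe set of its parent Rps27 was dim, with 173, 175 and 131 in Erg-knockdown cells against 214, 176 and 179 in Erg-restored cells. The populations of Rps27 did not overlap, and the gap between them was small, from 175 to 176. The difference was -0.23 ± 0.11, with a 95% interval from -0.53 to 0.068 (adjusted p = 0.771, limma), and the mice gave -0.28, -0.012 and -0.40. It was just above the filter, an intensity of 149. The difference of Rps27l minus that of Rps27 was 0.22 on average (exact two-sided sign-flip p = 0.50).

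Rpl7l1, known for its part in assembling the large subunit, read 4914, 4782 and 5019 in Erg-knockdown cells against 4922, 5719 and 4932 in Erg-restored cells. The Erg-restored array of mouse 279 stood above the other 5. The difference was -0.078 ± 0.094 (adjusted p = 0.821, limma), and its other 2 probe sets gave -0.053 and -0.14. Its parent Rpl7 read 13247, 13383 and 13019.9 in Erg-knockdown cells against 13151, 13565 and 12830.0 in Erg-restored cells, a difference of 0.0041 ± 0.069. The difference of Rpl7l1 minus that of Rpl7 was -0.082 on average (exact two-sided sign-flip p = 0.50).

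Rps4l was the paralog with the largest tested difference. It read 573, 397 and 682 in Erg-knockdown cells against 554, 356 and 243 in Erg-restored cells. Erg-knockdown was higher in each mouse, and most of the difference came from mouse 281, with 0.046, 0.15 and 1.43 in mice 278, 279 and 281. The difference was 0.54 ± 0.32, with a 95% interval from -0.37 to 1.45 (adjusted p = 0.771, limma), and 0.098 without mouse 281. Its parent Rps4x read 13030.4, 13270 and 12568 in Erg-knockdown cells against 12619, 13298 and 12317 in Erg-restored cells, a difference of 0.024 ± 0.069. The difference of Rps4l minus that of Rps4x was 0.52 on average (exact two-sided sign-flip p = 0.25, the smallest that 3 mice allow).

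**Figure D4:**
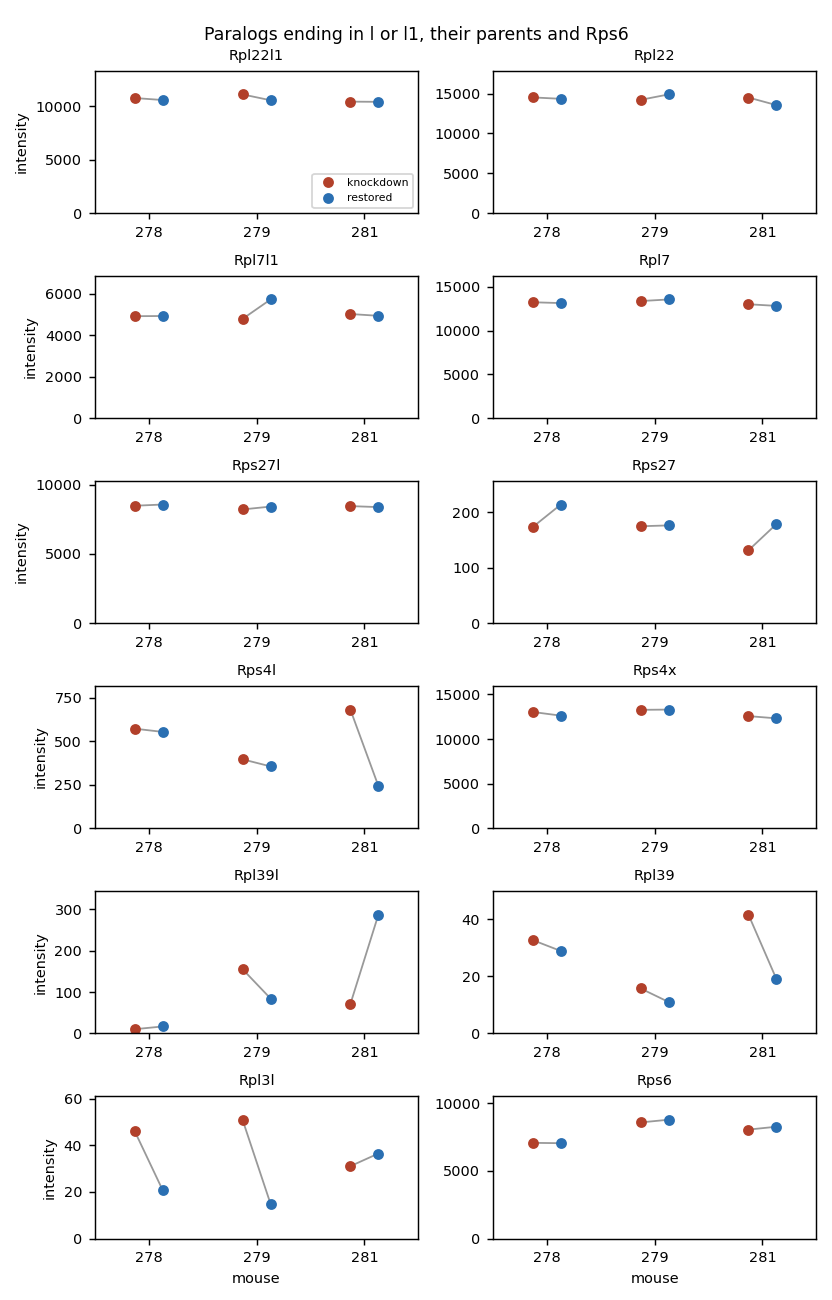
Intensity of the paralogs ending in l or l1, of their parent genes among the members and of Rps6 on each array, by mouse, on linear axes that start at 0, with Erg-knockdown left of Erg-restored and a line joining the populations of a mouse. Rpl22l1 and Rps27l lie close together in all 6 arrays, while Rps4l spans 243 to 682 and Rpl39l spans 10.3 to 287.

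The last 2 paralogs were under the filter, as were Rpl39, Rpl37 and Rps16. Rpl39l, known in mice from male germ cells, read 10.3, 156 and 71.1 in Erg-knockdown cells against 17.0, 84.5 and 287 in Erg-restored cells. Both populations of mouse 278 were low, and the mice gave -0.33, 0.77 and -1.80. Rpl3l, known from heart and skeletal muscle, read 46.1, 50.9 and 31.0 in Erg-knockdown cells against 20.7, 14.9 and 36.4 in Erg-restored cells, and the populations overlapped. Rpl39, the tunnel protein that Rpl39l can replace, read 32.7, 15.8 and 41.7 in Erg-knockdown cells against 28.9, 11.0 and 19.0 in Erg-restored cells. Its value was higher in Erg-knockdown cells of each mouse, at a level in the lowest 14.6% of probe sets. Rpl37 lay between 77.3 and 95.8 and Rps16 between 12.6 and 36.7 over the 6 arrays. Signals of different probe sets are not compared here as amounts of mRNA.

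Rpl12 and Rps25 were also dim for ribosomal protein genes, with means of 385 and 2446. Rpl12, which helps to form the base of the stalk, read 346, 203 and 459.9 in Erg-knockdown cells against 429, 581 and 291 in Erg-restored cells. The mice disagreed, with -0.30, -1.45 and 0.63, and the difference was -0.37 ± 0.43 (adjusted p = 0.820, limma), and 0.17 without mouse 279. Rps25, which some viral internal ribosome entry sites need, read 2961, 2381 and 1886 in Erg-knockdown cells against 2969.7, 1970.5 and 2509 in Erg-restored cells, a difference of -0.047 ± 0.16. The remaining tested members that have not been given values of their own lay between -0.053 (Rpl27) and 0.025 (Rps14).

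Genes that act around the ribosome were read from lists. Of 29 translation factors and other TOP transcripts, 13 were above 0 and 16 below, with 0 called in limma at an adjusted or unadjusted p below 0.05 and a median of -0.0085. The smallest p belonged to Eif3c, a subunit of the initiation factor that binds the small subunit, with 7256, 7570 and 7180 in Erg-knockdown cells against 7721, 9770 and 7858 in Erg-restored cells, and -0.20 ± 0.092. Eif3a of the same factor gave 0.094 ± 0.073 and the helicase gene Eif4a2 gave 0.13 ± 0.11. Of 18 genes of mTOR and TOP control, 12 were above 0 and 6 below, with 0 called in the same way and a median of 0.023. Rictor, the defining subunit of mTOR complex 2, read 3298, 3187 and 2974 in Erg-knockdown cells against 2723, 2631 and 2779 in Erg-restored cells, and 0.22 ± 0.080. The S6 kinase gene Rps6kb2 gave -0.21 ± 0.14 and Mycn, a driver of ribosome production, 0.16 ± 0.10.

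Of 35 genes of ribosome assembly, 30 were below 0 (49.9% of all genes) and 5 above, with a median of -0.086 against 0.00039 over all genes tested. The medians by mouse were -0.058, -0.29 and 0.11, so mouse 281 went the other way. The list's median was 0.045 without mouse 279 and -0.19 without mouse 281. At an adjusted p below 0.05 limma called 0 of them, and 1, Pdcd2l, passed an unadjusted p of 0.05 (1.88% of all genes were lower at that threshold). Pdcd2l, known as a companion of the small subunit protein Rps2, read 857, 814 and 801 in Erg-knockdown cells against 1037, 1083 and 957 in Erg-restored cells. The populations did not overlap, and the difference was -0.31 ± 0.077 (adjusted p = 0.771, limma). Its relative Pdcd2, the chaperone of Rps2, gave -0.23 ± 0.099, and Heatr3, known for the nuclear import of Rpl5, gave 0.14 ± 0.071. The ribosomal stress list held regulators and targets of p53. Of its 11 genes, Trp53 and Bax had no probe set named by a single symbol. Bbc3 and Phlda3 were under the filter and differed in sign between mice. Of its 7 tested genes, 6 were above 0 (50.1% of all genes), with a median of 0.088 and medians of 0.10, 0.14 and 0.11 in the 3 mice. Limma called 0 at an adjusted p and 1, Zmat3, at an unadjusted p below 0.05 (3.94% of all genes were higher at that threshold). Zmat3, a p53 target, read 1226, 1305 and 1128 in Erg-knockdown cells against 998, 975 and 1004 in Erg-restored cells, and 0.29 ± 0.086. The p53 inhibitor gene Mdm4 gave 0.15 ± 0.070 and the cell cycle inhibitor gene Cdkn1a 0.26 ± 0.17. Cdkn1a differed by -0.030, 0.13 and 0.67 in mice 278, 279 and 281, so most of it came from mouse 281.

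Dim probe sets of bright members gave other values than the bright ones, and were looked at after their values were seen. There were 13 probe sets with a mean between 100 and 2000 whose gene had another at 5000 or more. The Erg-knockdown array of mouse 279 was the lowest of the 6 in 8 of the 13, which is 61.5%, against 22.7% of the 17221 other probe sets in that range. Their median difference was 0.056, -0.97 and 0.29 in mice 278, 279 and 281. For Rpl35 such a probe set read 534, 143 and 516 in Erg-knockdown cells against 469, 663 and 417 in Erg-restored cells, where its bright probe set, given above, differed little. For Rpl41 it read 1852, 928 and 1919.7 in Erg-knockdown cells against 1706, 2043 and 1418 in Erg-restored cells. Both dim probe sets of Rps20 were higher in Erg-knockdown cells of each mouse instead. Which part of each transcript these probe sets read was not analysed here.

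**Figure D5:**
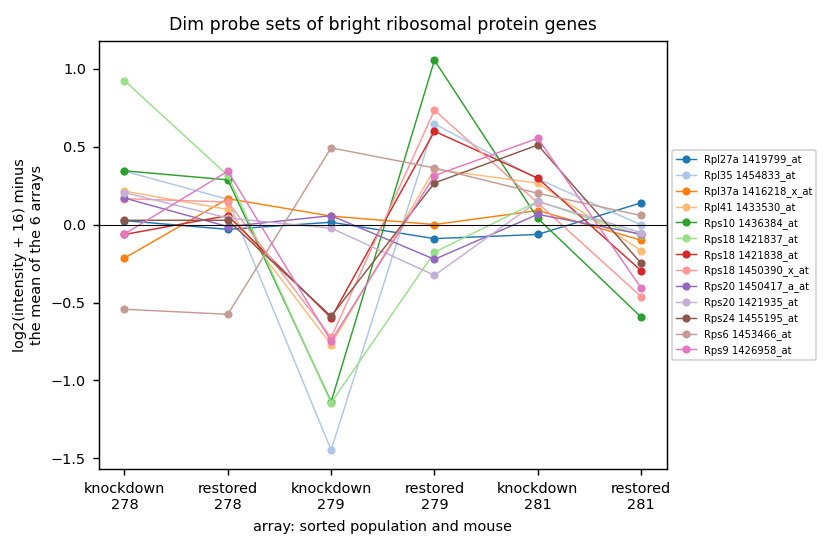
The 13 dim probe sets of bright ribosomal protein genes, as log2(intensity + 16) minus the mean of the 6 arrays, by array, with Erg-knockdown left of Erg-restored within each mouse. Most lines dip at the Erg-knockdown array of mouse 279, the lowest of the 6 in 8 of 13, and the lines of Rpl27a, Rpl37a and Rps6 and the 2 of Rps20 do not have their lowest point there.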

How the data were processed

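Intensities of 6 arrays were analysed, from RNA prepared with a Qiagen kit and amplified with the NuGEN Ovation V2 system, per the labels' protocols. The authors deposited linear intensities per probe set, whose summary and normalization are not given in the sources used here. No counts lie behind them, so no depth can be given. Of 45101 probe sets 64 controls were left out, and 34945 had 1 symbol, 932 several and 9160 none in the probe table. Values were taken as log2(intensity + 16). Because of the added 16, differences of dim genes are understated. Probe sets with a mean at or above the median of the means (149, which kept 22519) entered the fit, with the brightest per gene (10825 genes), and members under it were read from a fit with no filter. limma 3.58.1 in R 4.3.3 (lmFit, eBayes) fitted population and mouse, with Benjamini-Hochberg adjustment over all genes tested and a threshold of 0.05. It was also run on simulated data, whose outcome is not given here and is not used for the differences above. Figures used matplotlib 3.10.9 and Python 3.11.15.

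The mouse pairs the arrays because the labels put both populations in 1 animal. Over all genes the deviations from group means correlated within mice at 0.45 (278), -0.18 (279) and -0.31 (281), against 0.37 between Erg-knockdown of mouse 279 and Erg-restored of mouse 281 and 0.42 between Erg-knockdown of mouse 281 and Erg-restored of mouse 279. The pairing was kept from the labels, and the differences within mice 279 and 281 rest on it. Members, roles and lists were chosen with earlier results of these data known. Values are given for the paralogs and their parents, the stalk and Rpl11, the 6 members with the smallest p on each side, the 3 brightest, the 3 dimmest and those under the filter, probe sets that disagree with the brightest, and the 3 smallest p of each list; others named were chosen after their values were seen. Alternatives tried were quantile normalization or centring of the arrays, other filters and added values, the mean over probe sets, a random or no mouse block, eBayes settings, array weights, and leaving out each mouse or the Erg-restored array of mouse 279.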

Additional observations from a re-analysis of the deposited data

How the results depend on the processing

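With no replicate block 637 of all genes passed an unadjusted p below 0.05, against 630 with the mouse as a block, and the pairing changed no call among the members. The limma counts of members at an adjusted p below 0.05 stayed at 0 except with array weights whose REML estimate did not converge, which called 2 members (Rps24 and Rps27) and 4032 of all genes, gave 5607 genes at an unadjusted p below 0.05 and moved Erg to 0.11 (adjusted p = 0.0374). That estimate is not relied on, and gene by gene weights, added after seeing the data, gave 1230 genes at an unadjusted p below 0.05 and 0 at an adjusted one. Without a filter 1083 genes passed the unadjusted threshold, and leaving out each mouse gave 266 to 701. At the unadjusted threshold, members higher numbered 1 with the unconverged weights and 1 with trended robust eBayes (0 in the main fit). Members lower numbered 2 with the unconverged weights, 1 with gene by gene weights, 1 with trended robust eBayes and 0 to 1 with each mouse left out, the 1 being without mouse 279. The count of all genes with trended robust eBayes is not given here. The median over tested members (-0.0087) was 0.023 in 5 arrays without the Erg-restored array of mouse 279, -0.060 after centring and -0.017 to 0.015 with each mouse left out. For the small subunit (-0.00016) it was 0.037 in the 5 arrays, 0.024 with the unconverged weights, 0.019 with gene by gene weights, -0.051 after centring and -0.010 to 0.025 with each mouse left out, 0.025 being without mouse 279. For the large subunit (-0.021) it was -0.072 after centring, with 20 of 20 below 0, 0.013 in the 5 arrays, and -0.046 (without mouse 281) to 0.013 (without mouse 279) with each mouse left out. For the 4 paralogs (0.010) it was 0.015 in the 5 arrays, -0.041 after centring, 0.0043 as the mean over probe sets and -0.013 with the upper 30% filter. These medians in the 5 arrays have no median of all genes beside them. With each mouse left out, the list medians ran from -0.19 to 0.045 for ribosome assembly, -0.031 to 0.018 for translation factors, -0.0056 to 0.056 for mTOR and TOP control and 0.072 to 0.12 for ribosomal stress. The causes were not tested.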
